A study of Mus musculus with 29 samples.

Results

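The guanylate binding proteins examined here are encoded by 8 genes, Gbp2, Gbp3, Gbp4, Gbp5, Gbp6, Gbp7, Gbp8 and Gbp9, which were taken by symbol from the 24421 genes of a bulk RNA-seq count table. The table covered 29 female C57BL/6J mice, 5 to 6 weeks old at the start, that had received YTN16 cells into the peritoneal cavity on day 0. YTN16 is a mouse gastric cancer cell line that grows in immunocompetent mice of this strain. The RNA came from peritoneum that had been stripped off with or without tumor nodules, so each library mixed tumor, infiltrating immune cells and the body wall. Antibodies were injected intraperitoneally from day 5, anti-PD1 at 10 mg/kg and anti-CTLA4 at 5 mg/kg, and untreated mice received the saline vehicle.

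10 libraries came from the third week (3wk, day 21, last injection on day 12): 5 untreated mice and 5 mice given both antibodies (dual immune checkpoint inhibitor, dual ICI). The other 19 came from the fifth week (5wk, day 35, last injection on day 28): 5 untreated, 5 anti-PD1, 4 anti-CTLA4 and 5 dual ICI mice. The labels do not give the outcome of the 5wk dual ICI mice. The study's mouse numbers were matched to the replicate numbers in the titles, which made mice 1 and 5 uncured (tumor left) and mice 2, 3 and 4 cured, and the 5 mice were also compared as 1 group. The outcome groups therefore hold only 2 and 3 mice, and the weeks came from separate series of mice and libraries, so that week and series cannot be told apart.

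Guanylate binding proteins are large GTPases that interferon gamma induces strongly. They assemble on the membranes of vacuoles that hold pathogens and on cytosolic bacteria, help to break these open, and feed caspase-1 and caspase-4 inflammasomes. In tumors their transcripts are widely read as a trace of interferon gamma from T cells and natural killer cells, and macrophages, endothelium and tumor cells can all make them.

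The 8 genes lie in 2 clusters (GRCm38, GENCODE vM21, all protein coding). Gbp5 (chr3:142493978-142522344), Gbp7 (chr3:142530342-142550149), Gbp3 (chr3:142560026-142573209) and Gbp2 (chr3:142620602-142638008) stood on the plus strand of chromosome 3. Gbp8 (chr5:105014150-105139540), Gbp9 (chr5:105077630-105139539), Gbp4 (chr5:105115767-105139586) and Gbp6 (chr5:105270702-105293698) stood on the minus strand of chromosome 5. Gbp4, Gbp8 and Gbp9 had between 60 and 61 exonic bases in common, and 66.3% of the exonic bases of Gbp6 coding transcripts were also annotated to the read-through gene Gm43302, which was no row of the table. How reads were split between these overlapping genes, and between such similar sequences, is uncertain.

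Because interferon acts on this family through short promoter elements, the stretches that hold such motifs are shown before the values. RefSeq promoter windows (GRCm38.p6, 250 bases before to 50 after the start, 300 bases in all) were available for 4 of the 8 members and for the neighbouring family gene Gbp2b. Each of the 4 members held a match to the interferon-stimulated response element, searched on both strands as GAAA, any 2 bases and GAAA, which is a site type for IRF factors. The element was present in 3.44% of 32851 promoter windows. Capitals mark the matches, which lie on the minus strand and so read as TTTC, 2 bases and TTTC in the plus strand sequence given. In Gbp3, whose first of 2 RefSeq entries is shown, matches that start 45 and 39 bases upstream overlap each other.
Gbp2, chr3:142620596-142620621: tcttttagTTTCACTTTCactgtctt
Gbp3, chr3:142559991-142560022: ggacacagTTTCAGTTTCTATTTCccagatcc
Gbp2b, chr3:142594702-142594727: acttctaaTTTCACTTTCttctttat

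Gbp5 and Gbp7 also matched the gamma-activated site, searched as TTCNNNGAA, which is palindromic and reads alike on both strands. It was present in 8.30% of the windows and is a classical element of interferon gamma responses. The Gbp7 stretch below holds 2 gamma-activated sites, starting 106 and 87 bases upstream, ahead of the response element at 53. The Gbp5 stretch holds the response element at 165 bases, between gamma-activated sites at 245 and 52. All distances count from the RefSeq start, which can differ from the GENCODE start. The Gbp5 stretch and the Gbp2 match thus lie inside the GENCODE gene spans given above. A match is a description of letters, and binding was not measured.
Gbp7, chr3:142530222-142530300: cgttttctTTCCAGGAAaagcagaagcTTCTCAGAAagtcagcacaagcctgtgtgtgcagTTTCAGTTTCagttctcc
Gbp5, chr3:142496684-142496898: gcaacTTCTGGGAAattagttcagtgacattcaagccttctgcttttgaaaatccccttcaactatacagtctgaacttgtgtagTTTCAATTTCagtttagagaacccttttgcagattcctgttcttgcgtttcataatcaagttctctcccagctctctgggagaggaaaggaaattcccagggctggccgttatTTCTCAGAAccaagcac

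Libraries held between 25989217 and 31219650 counts, and the 8 members had between 51 and 13429 counts in a library. Markers of gastric epithelium, which stand for the tumor, took 0.0832% to 0.550% of the counts in 25 libraries. They took 0.00169% to 0.00801% in the 3 cured mice and 0.00506% in anti-PD1 mouse 5. The study describes a cured mouse in the anti-PD1 group, and the sources used here do not tie it to a mouse number, so the anti-PD1 mice were kept as 1 group. Skeletal muscle markers took 17.2% to 19.2% of the counts in these 4 libraries and 3.18% to 16.7% in the others. In such mixed tissue fewer cells of a type and less RNA per cell cannot be told apart. Values below are CPM, that is counts divided by library size and put on a common scale, with sizes adjusted by the trimmed mean of M values (TMM), and a gene was called where edgeR's quasi-likelihood test gave a Benjamini-Hochberg adjusted p under 0.05 over all genes tested.

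All 8 members were expressed in every library, and the median of the dual ICI 3wk mice was the highest of the 7 groups for 8 of 8 members. The dual ICI-cured 5wk mice had the lowest median for 5 members, and the anti-PD1 5wk mice had it for Gbp4, Gbp6 and Gbp7. Groups next to each other in the order of medians overlapped in 38 of 48 cases, so most of the order was not resolved beyond the spread between mice. Per kilobase of exon, Gbp2 was the most abundant member in all 7 groups, with 86.0 ± 38.8 CPM per kb in dual ICI 3wk mice and 38.8 ± 14.5 in untreated 3wk mice (SD, n = 5 each). The other members lay between 8.12 and 13.6 CPM per kb in untreated 3wk mice.

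**Figure D1:**
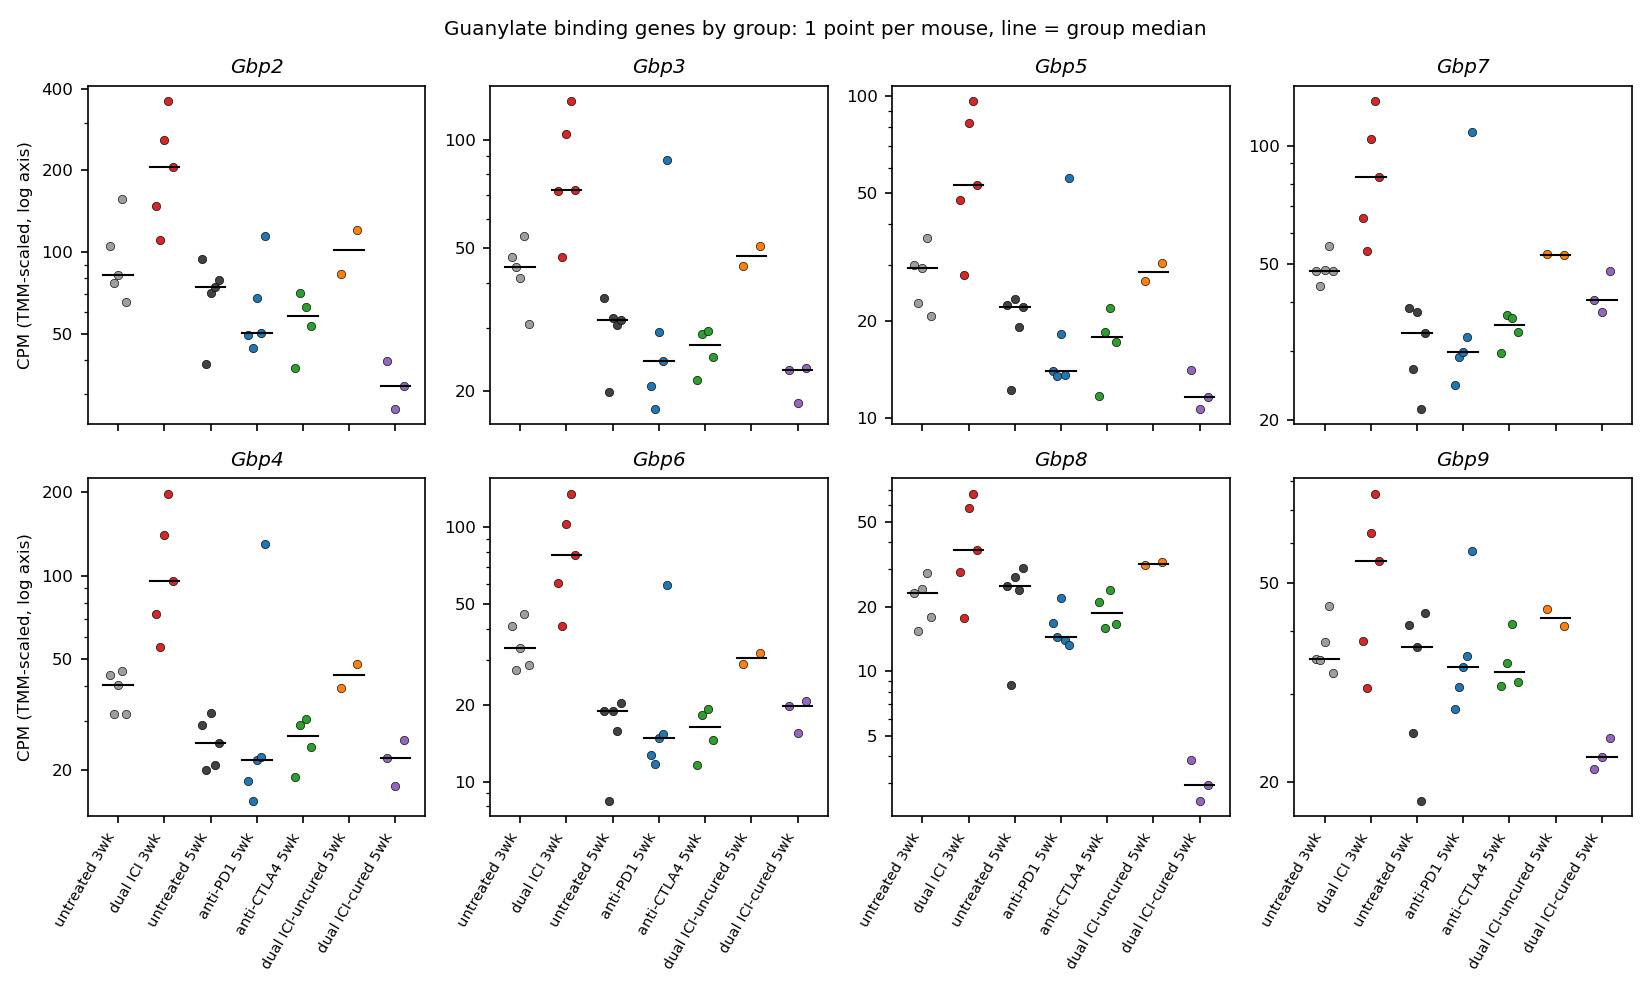
CPM (TMM-scaled, log axis) of each member in 29 mice by group, with 1 point per mouse and a line at the group median; the upper row holds the chromosome 3 genes and the lower row the chromosome 5 genes. The dual ICI 3wk mice have the highest median in every panel, anti-PD1 mouse 5 stands above its group for 7 of the 8 genes, and Gbp8 is lowest in the 3 cured mice, between 2.48 and 3.84 CPM.

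The first comparison set dual ICI against untreated mice at 3wk. Every member had a higher mean in dual ICI than in untreated mice, with log2 fold changes from 0.51 for Gbp9 to 1.55 for Gbp4 and a median of 1.07, beside 0.02 over all 15503 genes tested. None of the 8 passed the adjusted threshold in edgeR, where 89 genes (0.574%) did. All 8 had an unadjusted p under 0.05 and were higher, against 6.02% of the genes tested. The 3 other family genes of the table, Gbp2b, Gbp10 and Gbp11, did pass.

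Gbp4, which is known to restrain IRF7 and so type I interferon, had the largest change among the members. It stood at 72.5, 55.5, 141, 198 and 95.7 CPM in the dual ICI mice and at 43.9, 31.7, 40.5, 45.5 and 31.7 in the untreated mice. Each dual ICI mouse was above every untreated mouse, which held for this 1 of 8 members and for 1.83% of all genes in that direction. The fold was 2.93 (log2 1.55 ± 0.31 SE), and the adjusted p of 0.0531 in edgeR just missed the threshold.

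Gbp2, which is brought to pathogen vacuoles and bacteria and promotes inflammasome activation, stood at 148, 111, 258, 359 and 205 CPM with dual ICI and at 106, 77.1, 82.4, 157 and 65.3 without. Dual ICI mice 1 and 2 lay within the range of the untreated mice, and the other 3 lay above it. Its log2 fold change was 1.16 ± 0.33 (edgeR adjusted p = 0.169).

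Gbp5, a prenylated member tied to the NLRP3 inflammasome, stood at 47.7, 27.8, 82.3, 96.4 and 53.2 CPM with dual ICI and at 29.9, 22.9, 29.3, 36.3 and 20.8 in untreated mice. Only dual ICI mouse 2 lay inside the untreated range. Its log2 fold change was 1.16 ± 0.30 (edgeR adjusted p = 0.134). Gbp6, of the chromosome 5 cluster, went from a mean of 35.3 ± 7.88 to 83.7 ± 37.1 CPM (SD, n = 5 each), with a log2 fold change of 1.26 ± 0.29 (edgeR adjusted p = 0.0906).

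Gbp7, which has been linked to the phagocyte oxidase, went from 48.6 ± 4.20 to 87.2 ± 30.4 CPM, and Gbp3 from 43.4 ± 8.53 to 84.6 ± 31.3 CPM (SD, n = 5 each). Gbp8 and Gbp9, whose roles are less well described, had log2 fold changes of 0.95 ± 0.32 and 0.51 ± 0.22. Across the family, dual ICI mice 3, 4 and 5 were the 3 highest of the 10 mice for 8 of 8 members, and mouse 2 was the lowest of the treated mice for 8 of 8. Mice 3, 4 and 5 also had more gastric epithelium markers (0.186% to 0.345% of counts) than mice 1 and 2 (0.0835% and 0.0850%) and fewer muscle markers (5.63% to 9.74% against 13.6% to 15.9%), and the part of this in the order was not tested.

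Gbp2b, the gene once named Gbp1, lies between Gbp3 and Gbp2 and was present at low level. It stood at 10.7, 8.95, 22.3, 11.6 and 8.85 CPM in dual ICI mice and at 1.30, 3.56, 1.64, 0.870 and 2.23 in untreated mice, a 6.53-fold difference (log2 2.71 ± 0.40, edgeR adjusted p = 0.0176). Gbp10 was 4.13-fold higher (log2 2.05 ± 0.30, adjusted p = 0.0176) and Gbp11, annotated as a polymorphic pseudogene, was 2.92-fold higher (log2 1.54 ± 0.24, adjusted p = 0.0223). None of these 3 genes overlapped between the groups. Of the exonic bases of Gbp10, 50.8% were shared with Gm43302.

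Along the pathway above the family, Ifng itself was barely detected in untreated mice and stood at 0.905, 0.746, 1.19, 2.17 and 1.02 CPM with dual ICI, against 0.420, 0.0774, 0.291, 0.155 and 0.371 without. The groups did not overlap, and the log2 fold change was 2.20 ± 0.44 (edgeR adjusted p = 0.0539). Irf8, an interferon gamma induced factor of myeloid cells, was the 1 of 16 genes of the interferon gamma axis that passed, with a log2 fold change of 0.99 ± 0.17 (adjusted p = 0.0322). Irf1 (0.72 ± 0.20, adjusted p = 0.167) did not pass.

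Of 20 other interferon gamma induced genes 6 rose and none fell, with a median log2 fold change of 0.90. Slamf8, a myeloid surface receptor (log2 1.57), the immunoproteasome subunits Psmb9 (1.10) and Psmb8 (0.95), and the protease inhibitor Serpina3g (2.03) were the 4 with the smallest adjusted p. Among the immunity-related GTPases, which load onto the same vacuoles as the guanylate binding proteins, Igtp (1.35) and Iigp1 (1.63) rose of 8 tested, with a median of 1.18. None of 16 type I interferon induced genes passed, with a median of 0.23, and none of 15 inflammasome and vacuole partners did, with a median of 0.14.

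Some T cell markers were also higher with dual ICI. The summed level of the 2 CD8 T cell markers was 11.3 to 32.0 CPM with dual ICI and 1.94 to 5.57 without, and both rose. The 6 T cell markers summed to 25.4 to 41.0 against 9.56 to 17.2 CPM, with 2 called, and the 8 macrophage markers to 1212 to 2132 against 1053 to 1172 CPM, with none called. Of the gastric epithelium markers only Gkn3 was called, and it was lower with dual ICI (log2 -2.29 ± 0.34, edgeR adjusted p = 0.0176). The share of counts in these markers overlapped, at 0.0835% to 0.345% with dual ICI and 0.0832% to 0.298% without. The part of these cells in the levels of the members was not tested. DESeq2 called 6 of the 8 members, all but Gbp8 and Gbp9, beside 501 genes (2.51%), and edgeR called 5 without dual ICI mouse 2 and 1 (Gbp4) without mouse 1. With the gastric epithelium score as a covariate, a setting chosen after seeing the data, all 8 were called beside 3538 genes (22.8%).

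**Figure D2:**
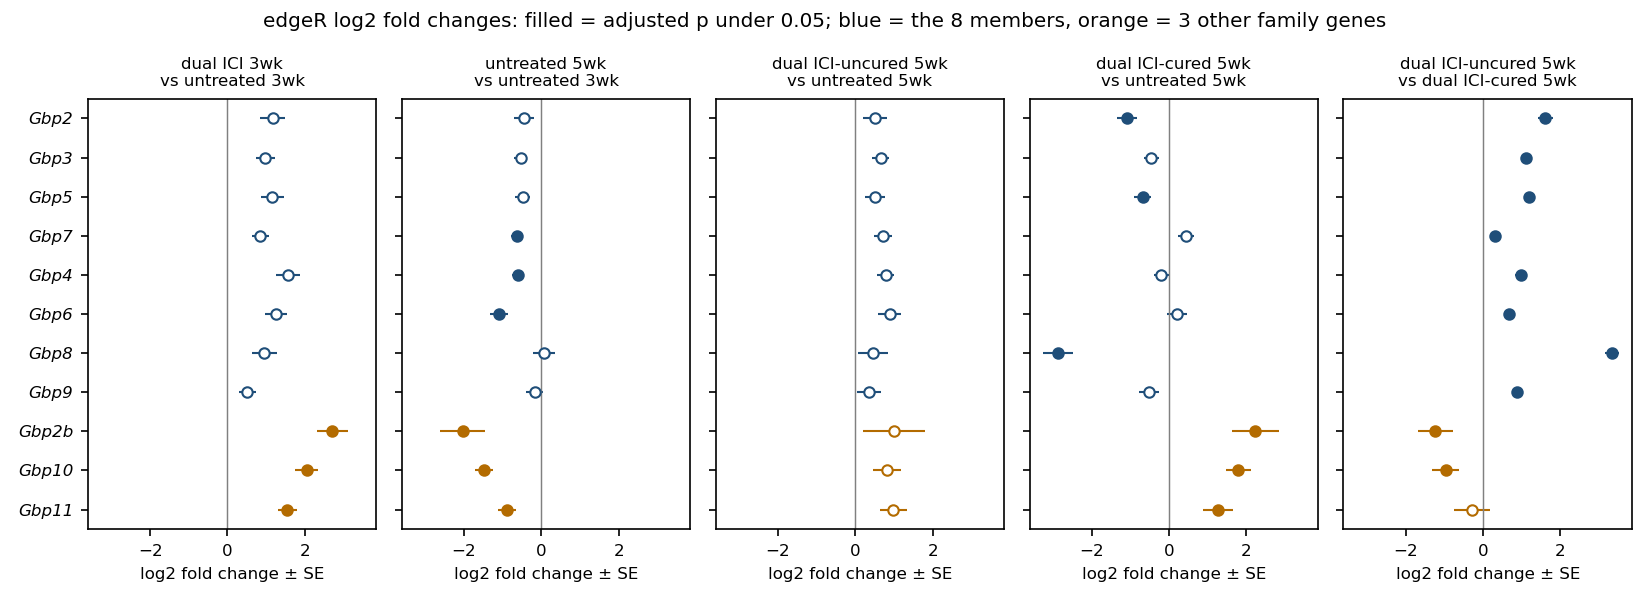
edgeR log2 fold change (point) and its SE (bar) of the 8 members in blue and of Gbp2b, Gbp10 and Gbp11 in orange, in 5 comparisons; filled points have an adjusted p under 0.05. All members lie right of 0 for dual ICI at 3wk with open points, and Gbp2b, Gbp10 and Gbp11 lie right of 0 in cured mice where Gbp8 lies farthest left.

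Untreated mice of the 2 weeks were then compared. Between 3wk and 5wk, 3 of the 8 members fell and none rose in edgeR, beside 1687 of 15604 genes called (10.8%, and 4.58% lower). The median of the members was -0.51 on the log2 scale, beside 0.02 for all genes. Gbp6 went from 40.9, 27.4, 33.6, 45.7 and 28.6 CPM to 18.9, 8.42, 19.0, 15.8 and 20.3, with no overlap (log2 -1.10 ± 0.23, adjusted p = 0.0155). Gbp7 (log2 -0.63 ± 0.15, adjusted p = 0.0274) also did not overlap, and Gbp4 (log2 -0.61 ± 0.16, adjusted p = 0.0341) did. Non-overlap in that direction held for 2 of 8 members and 5.20% of genes.

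Gbp3 (-0.53), Gbp5 (-0.48), Gbp2 (-0.45) and Gbp9 (-0.18) had negative values that did not pass, and Gbp8 stood at 0.08 ± 0.28. Gbp10 (-1.49), Gbp11 (-0.90) and Gbp2b (-2.03) fell. So did Stat2, Jak1 and Ciita among the interferon gamma axis, 3 of 8 immunity-related GTPases and 3 of 16 type I interferon induced genes, while of the 20 other interferon gamma induced genes 1 rose and none fell. Gastric epithelium markers took 0.0832% to 0.298% of the counts at 3wk and 0.0961% to 0.397% at 5wk, and 2 of 11 rose. Of the other cell types, 2 of 5 neutrophil markers (S100a8 and S100a9) rose, while 3 of 5 fibroblast markers (Pdgfra, Col1a1 and Lum) and 1 marker each of monocytes (Ccr2), endothelium (Tek), adipocytes (Plin1) and skeletal muscle (Myh2) fell. The part of these in the result was not tested. With the gastric epithelium score as a covariate 6 members were called beside 935 genes (5.99%), and without untreated 3wk mouse 1, 3 or 5 or untreated 5wk mouse 5 only Gbp6 was.

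The single antibodies at 5wk were compared with untreated mice of that week. Neither anti-PD1 nor anti-CTLA4 gave a called gene in edgeR or DESeq2 (0.0% of 15640 and of 15781 genes in edgeR), and no member had an unadjusted p under 0.05 in edgeR, beside 1.31% of genes with anti-PD1 and 0.811% with anti-CTLA4. With anti-CTLA4 the members lay within 0.36 of 0 on the log2 scale, from -0.36 ± 0.25 for Gbp2 to 0.09 ± 0.18 for Gbp7. Irf1 stood at -0.04 ± 0.17 and Irf8 at 0.14 ± 0.17. Gbp2 was at 37.5, 70.5, 62.9 and 53.5 CPM with anti-CTLA4 and at 94.0, 38.6, 71.0, 74.6 and 78.8 in untreated mice, so that the groups overlapped over most of their range.

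With anti-PD1 the members ranged from -0.52 ± 0.29 for Gbp8 to 0.71 ± 0.57 for Gbp4, and 1 mouse set the sign of all but Gbp2 and Gbp8. Gbp4 stood at 18.2, 15.5, 21.7, 22.2 and 130 CPM, the last in mouse 5, and at 29.0, 19.96, 32.2, 20.8 and 25.0 in untreated mice. Without anti-PD1 mouse 5 the Gbp4 value was -0.40, and those of Gbp3 (-0.40), Gbp5 (-0.43), Gbp6 (-0.28), Gbp7 (-0.14) and Gbp9 (-0.05) also turned below 0, with no member called. DESeq2 gave no p for 2 members in this comparison.

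Anti-PD1 mouse 5 had the low gastric epithelium share given above and had 87.8 CPM of Gbp3, 108 of Gbp7 and 55.9 of Gbp5, levels within the range of dual ICI 3wk mice. Its Irf1 (63.6 CPM), Irf8 (29.7) and Cxcl9 (26.8) lay inside the ranges of the other 4 mice of its group. Its Gbp8, at 13.3 CPM, was the lowest of its group. Its 2 CD8 T cell markers summed to 2.68 CPM beside 2.86 to 8.13 in the other 4 mice, and its neutrophil markers to 9.60 beside 44.4 to 95.6.

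**Figure D3:**
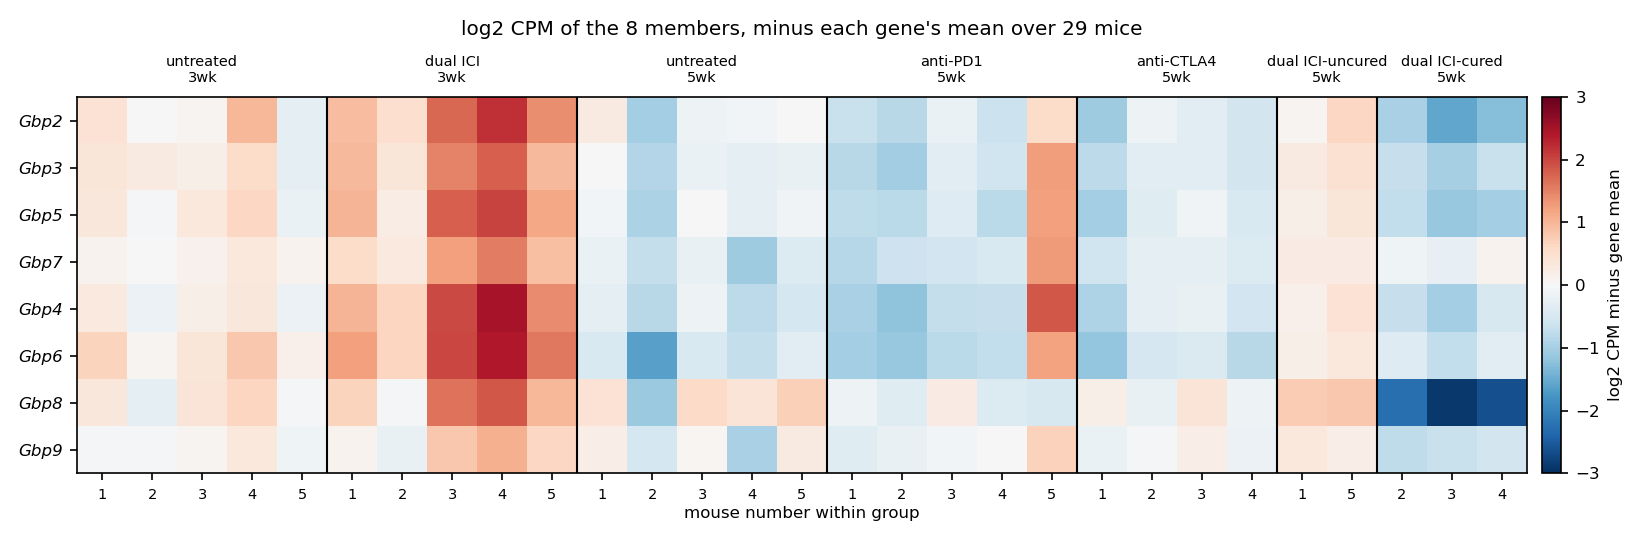
log2 CPM of the 8 members (rows) in 29 mice (columns, numbered within group), minus the mean of each gene over all mice; red is above and blue below that mean. Dual ICI 3wk mice 3, 4 and 5 and anti-PD1 mouse 5 form the strongest red columns, with Gbp8 as the 1 row that is not red in anti-PD1 mouse 5, and Gbp8 in the cured mice is the deepest blue.

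Taken as the 1 group that the labels give, the 5 dual ICI 5wk mice had no member that passed against untreated 5wk mice (edgeR 0 of 8, and 0.0% of 15588 genes, while DESeq2 called 46 genes and no member). One member, Gbp7, had an unadjusted p under 0.05, against 6.87% of genes, at a log2 fold change of 0.55 ± 0.18. The spread within the group was wide, as Gbp8 ranged from 2.48 to 32.3 CPM within it and from 8.58 to 30.2 in untreated mice.

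Compared with untreated 5wk mice, all 8 members had positive log2 fold changes in the 2 uncured mice, from 0.36 for Gbp9 to 0.89 for Gbp6, with a median of 0.58 beside -0.01 for all genes. None passed in edgeR, nor did any of 16156 genes (0.0%), and DESeq2 called 17 genes and no member. Gbp3, Gbp4, Gbp6 and Gbp7 had an unadjusted p under 0.05, which 2.74% of genes had in that direction.

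Gbp4 was at 39.5 and 48.3 CPM in the uncured mice, above the highest untreated 5wk mouse at 32.2, with a log2 fold change of 0.78 ± 0.22 (edgeR adjusted p = 0.734). Both uncured mice lay above all 5 untreated mice for 6 of 8 members, that is all but Gbp2 and Gbp9, which 9.22% of genes did. Irf8 (0.75 ± 0.23) had a value of the same size, and 20 of 20 other interferon gamma induced genes and 8 of 8 immunity-related GTPases were above 0, though none passed. The CD8 T cell markers summed to 11.6 to 13.0 CPM in the uncured and 3.09 to 5.69 in the untreated mice. T cell markers (28.6 to 29.1 against 10.9 to 23.5 CPM) and natural killer cell markers (4.14 to 6.14 against 2.07 to 3.66 CPM) did not overlap either. Macrophage markers did (1249 to 1414 against 517 to 1271 CPM). Gastric epithelium markers took 0.445% to 0.550% of the counts in uncured and 0.0961% to 0.397% in untreated mice, without overlap. The part of these in the values of the members was not tested.

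Set beside the dual ICI mice of 3wk, the uncured mice were lower by 0.97 in the median of the members, with 857 of 16135 genes called (5.31%) but none of the members in edgeR. In all, 6 members had an unadjusted p under 0.05 and were lower, against 15.4% of genes, and DESeq2 called Gbp4 and Gbp6. Over the settings that kept every mouse, 237 to 3192 genes were called in this comparison, and the number for DESeq2 alone is not given here. Gbp6 had the largest difference among members (log2 -1.46 ± 0.43, edgeR adjusted p = 0.0739), at 29.0 and 32.2 CPM against 60.7, 40.8, 103, 136 and 77.6, and edgeR called it without dual ICI 3wk mouse 4. Gbp2b (log2 -3.73 ± 0.60, adjusted p = 0.0305) and Gbp10 (log2 -2.71 ± 0.48, adjusted p = 0.0333) were lower. Gbp8, at 31.3 and 32.3 CPM, lay within the 17.8 to 67.5 CPM of the 3wk mice. Gastric epithelium markers took 0.445% to 0.550% of the counts in uncured mice and 0.0835% to 0.345% in the 3wk mice, without overlap, with 3 of 11 markers called higher (Tff2, Muc1 and Krt19) and 1 of 10 muscle markers (Myh2) called lower. The part of these in the result was not tested.

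The effect of dual ICI in uncured mice at 5wk was then set against its effect at 3wk in an interaction term. Values for the members ran from -0.75 ± 0.45 for Gbp4 to -0.11 ± 0.34 for Gbp7, all below 0, with a median of -0.42. No member and none of 16542 genes passed in edgeR (0.0%), no member had an unadjusted p under 0.05, which 6.35% of genes had, and DESeq2 called 1 gene and no member. A difference in effect between the weeks was thus not detectable with 2 uncured mice.

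Cured mice were then set against untreated 5wk mice. In edgeR 3 of the 8 members fell and none rose, while 7067 of 15816 genes were called (44.7%, and 26.7% lower). The share of members called was thus near that of all genes. The median log2 fold change was -0.49 for members and -0.05 for all genes. Gbp2b, Gbp10 and Gbp11, which are not among the 8 members, rose in the same mice.

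Gbp8 stood out. It was at 3.84, 2.48 and 2.95 CPM in the cured mice and at 25.0, 8.58, 27.6, 23.9 and 30.2 in untreated mice, so that every cured mouse was below every untreated mouse. Its log2 fold change was -2.87 ± 0.40 (edgeR adjusted p = 0.000567), and it was the 1 of 8 members without overlap, against 26.9% of genes in that direction. The untreated mouse nearest to the cured mice, mouse 2, also had the smallest share of gastric epithelium markers in its group, 0.0961%, and the largest share of muscle markers, 16.7%.

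Gbp2 fell from 71.4 ± 20.3 (SD, n = 5) to 32.9 ± 6.69 CPM (SD, n = 3), with a log2 fold change of -1.10 ± 0.26 (edgeR adjusted p = 0.00862). Gbp5 fell from 19.9 ± 4.59 to 12.2 ± 1.76 CPM (log2 -0.69 ± 0.22, adjusted p = 0.0289), a call that was lost on leaving out any 1 of 6 of the 8 mice. Without untreated mouse 2, Gbp3 was called too. Gbp3 (-0.46), Gbp9 (-0.52) and Gbp4 (-0.20) did not pass, nor did Gbp6 (0.21) and Gbp7 (0.43).

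The sign for Gbp6 and Gbp7 rests on scaling. The TMM factors of the cured libraries were 0.698 to 0.730, and on raw library totals the cured mice had 13.4 ± 1.89 CPM of Gbp6 and 30.1 ± 3.98 of Gbp7 (SD, n = 3), below the 18.1 ± 7.35 and 34.3 ± 12.6 CPM of untreated mice (SD, n = 5). On raw totals Gbp2b (1.56 against 0.488 CPM) and Gbp10 (3.17 against 1.39 CPM) were still higher and Gbp8 (2.21 against 25.5 CPM) still lower in cured mice.

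Gbp2b was at 2.10, 2.05 and 2.37 CPM in the cured and at 0.658, 0.325, 0.293, 1.03 and 0.0587 in the untreated mice (log2 2.23 ± 0.60, edgeR adjusted p = 0.0146). Gbp10 was at 6.30, 2.73 and 4.31 against 1.00, 1.14, 1.47, 0.994 and 1.85 CPM (log2 1.79 ± 0.33, adjusted p = 0.00251). Neither gene overlapped between the groups, in a comparison that called 44.7% of the genes tested in either direction. The share of all genes without overlap in the higher direction is not given here. Gbp11 was 2.40-fold higher (log2 1.26 ± 0.39, adjusted p = 0.0271) with overlap.

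Of the 15 interferon gamma axis genes tested 7 fell and 1 rose, with Irf8 at -1.12 ± 0.20 (adjusted p = 0.00221) and Irf1 at -1.09 ± 0.21 (adjusted p = 0.00363). Of 20 other interferon gamma induced genes 17 fell, among them the chemokines Cxcl9 (log2 -3.60) and Cxcl10 (-3.61). Of 8 immunity-related GTPases 2 fell (Ifi47 and Tgtp1) and Irgm2 rose. Among the type I interferon induced genes with the smallest adjusted p, Oas2 (-1.12), Oas3 (-1.38) and Oas1a (-1.07) fell and Ifit3 (1.10) rose. Of 15 inflammasome and vacuole partners 7 fell, led by Casp4 (-2.75), Il1b (-4.24), Casp1 (-2.98) and the pore-forming Gsdmd (-2.16).

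The tissue of the cured mice differed as a whole. All 11 gastric epithelium markers tested fell, the 14 markers summed to 23.3 to 115 CPM against 1215 to 4107, and Tff1, Gkn1, Gkn2 and Muc5ac were at 0 in the cured mice. All 5 neutrophil markers tested fell (summed 7.06 to 9.20 against 28.8 to 93.5 CPM), while macrophage markers summed to 718 to 801 against 517 to 1271 CPM and none of 8 was called. Monocyte markers summed to 60.2 to 67.0 against 129 to 350 CPM, with Plac8 called lower. Natural killer cell markers summed to 0.291 to 0.682 against 2.07 to 3.66 CPM, with Eomes called lower. Mesothelium markers summed to 32.6 to 133 against 140 to 463 CPM, with Msln and Wt1 called lower. T cell markers, of which 4 of 6 fell, summed to 7.02 to 9.88 against 10.9 to 23.5 CPM, and 2 of 5 endothelial markers rose. Muscle markers were at 17.7% to 19.2% of counts, against 4.77% to 16.7%. The part of these tissues and cells in the levels of the members was not tested, since the cured libraries were below the marker share set for the covariate.

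**Figure D4:**
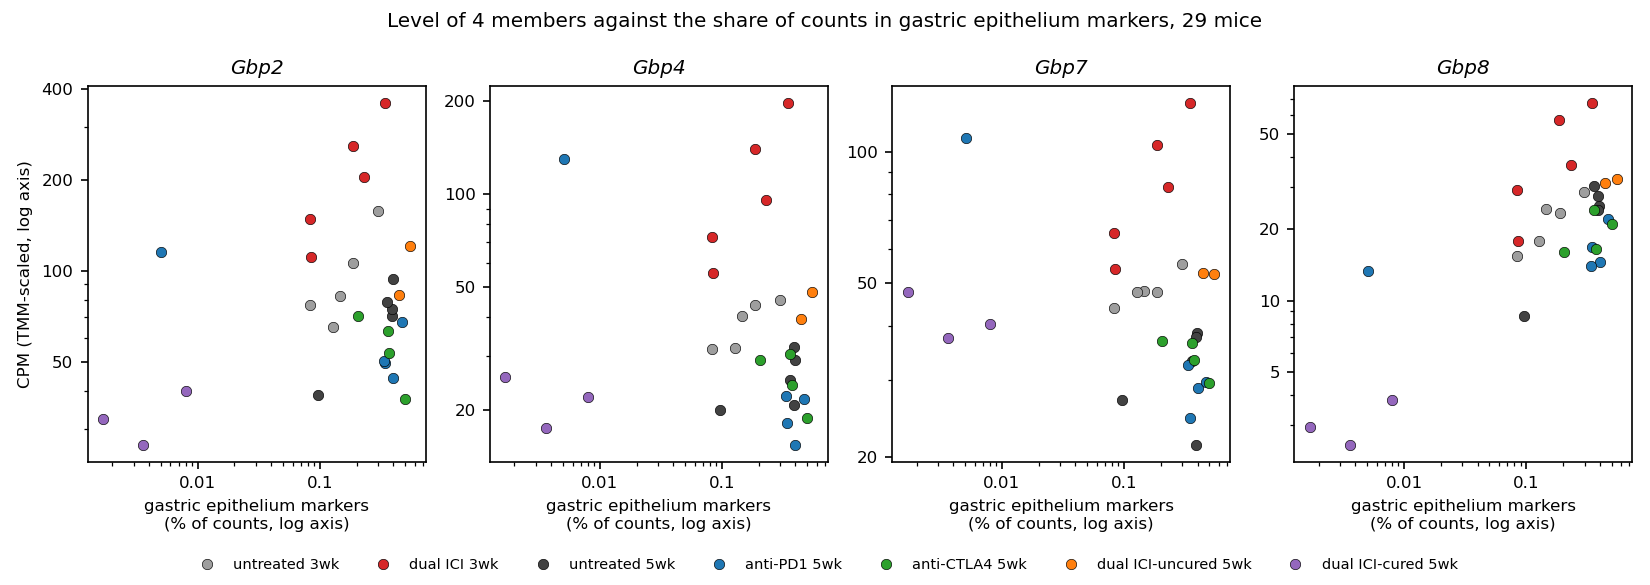
CPM (TMM-scaled, log axis) of Gbp2, Gbp4, Gbp7 and Gbp8 against the percent of counts in gastric epithelium markers (log axis), with 1 point per mouse for 29 mice, coloured by group. The 3 cured mice and anti-PD1 mouse 5 lie far left, at 0.00169% to 0.00801%, where anti-PD1 mouse 5 has 130 CPM of Gbp4 and the cured mice have 17.5 to 25.7.

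Between the outcomes of dual ICI at 5wk, all 8 members were higher in the 2 uncured than in the 3 cured mice, and no values overlapped. Here 11063 of 15796 genes were called (70.0%, and 36.9% higher), and non-overlap in that direction held for 43.7% of genes. The median of the members was 1.05 beside 0.05 for all genes. The differences were unequal within the family, from 3.34 ± 0.18 for Gbp8 (31.3 and 32.3 against 3.84, 2.48 and 2.95 CPM, edgeR adjusted p = 1.12e-06) to 0.30 ± 0.12 for Gbp7 (52.8 and 52.4 against 40.4, 37.6 and 47.8 CPM, adjusted p = 0.0465).

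Gbp2 was 3.05-fold higher in the uncured mice (log2 1.61 ± 0.19, edgeR adjusted p = 9.23e-05), at 83.0 and 121 against 39.9, 26.6 and 32.2 CPM. Gbp5 (1.20), Gbp3 (1.12), Gbp4 (0.99), Gbp9 (0.88) and Gbp6 (0.68) lay between these ends. Gbp2b (log2 -1.24 ± 0.46, adjusted p = 0.0379) and Gbp10 (log2 -0.97 ± 0.36, adjusted p = 0.0369) were lower in the uncured mice, and Gbp11 stood at -0.28 ± 0.47. On raw library totals Gbp10 was at 2.80 ± 0.508 CPM (SD, n = 2) in uncured and 3.17 ± 1.20 (SD, n = 3) in cured mice, a difference within the spread. Gbp2b was at 1.15 ± 0.823 CPM in uncured and 1.56 ± 0.140 in cured mice on raw totals, also within the spread.

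Of 20 other interferon gamma induced genes 19 rose in uncured against cured mice, as did 12 of 15 genes of the interferon gamma axis, 6 of 8 immunity-related GTPases, 10 of 16 type I interferon induced genes and 9 of 15 inflammasome and vacuole partners. In the other direction 5 of the partners fell, as did 1 gene of the interferon gamma axis and 1 type I interferon induced gene. Casp1 (log2 3.16) and Aim2 (3.15), the inflammasome protease and a sensor of cytosolic DNA, and Gsdmd (2.40) were higher. Beside these, 9 of 10 gastric epithelium, 5 of 5 neutrophil, 5 of 6 T cell and 7 of 8 macrophage markers were higher and 10 of 10 muscle markers lower, and their part was not tested. Gbp7 lost its call in DESeq2 and on leaving out any 1 of 4 of the 5 mice, and in a fit with all 29 libraries Gbp4, Gbp6 and Gbp7 were not called.

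The members rose and fell together across mice. Over 28 pairs of members, Spearman's rho of CPM over the 29 libraries had a median of 0.80 and ran from 0.44 (Gbp7 with Gbp8) to 0.98. With group means subtracted the median was 0.83 and the range 0.42 to 0.95. Gbp8 was the least alike of the family in both, with a median rho of 0.71 and 0.57. These libraries share tissue composition and scaling, so the values are a description.

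Of 14338 genes with a mean of at least 1 CPM, 8 were the members themselves. Among the rest, those whose log2 CPM followed the members most closely over the 29 libraries included Tgtp2, Tgtp1, Irgm1 and Gm12250. Their mean rho over the 8 members was 0.88, 0.88, 0.87 and 0.87. With group means subtracted the closest genes included Tgtp2 (0.84), Cd274 (0.84), Tgtp1 (0.83) and Iigp1 (0.83). Tgtp1, Tgtp2, Irgm1 and Iigp1 are immunity-related GTPases, and Cd274 encodes PD-L1, the ligand of the receptor that anti-PD1 blocks.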

How the data were processed

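RNA-seq gene counts of 29 libraries were used as deposited, in 1 table of 24421 genes. Per the labels, the processing notes of the submitters name STAR 2.7.0f and featureCounts 1.6.4, while the study's methods name STAR with HTSeq on the mm10 genome; the strand setting was not given in the sources used here. The deposited counts were not normalized. Totals were 25989217 to 31219650 counts per library.

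Each comparison was fitted with edgeR 4.0.16 in R 4.3.3 (TMM factors; genes kept by filterByExpr; the two-sided quasi-likelihood F test of glmQLFTest; Benjamini-Hochberg over every gene kept; calls at an adjusted p under 0.05), with only the groups compared in the fit. The study named DESeq2 for its own tests; DESeq2 1.42.0, upper-quartile factors, other filters on low counts, all 29 libraries in 1 fit, leaving out muscle markers or single mice, and the replicate block were alternatives. A gastric epithelium score (mean log2 CPM of the markers, prior count 2) was added as a covariate after seeing the data, only where every library had at least 0.05% of counts in these markers and the group ranges overlapped. SE is the log2 fold change divided by the square root of F. Medians of lists are over the genes tested. Scripts were tested on simulated data. Each sample is 1 mouse; no 2 libraries were identical.

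Named are the 8 members, the other family genes of the table, Ifng, Irf1 and Irf8, up to 4 called genes per list with the smallest adjusted p, and the 5 genes most like the members; Cxcl9 in anti-PD1 mice was added after its values were seen, and 1 gene that this rule names is not reported here. The members and lists were chosen with earlier results of these data known. Exon lengths and positions come from GENCODE vM21, promoters from RefSeq. Mouse outcome was taken from the study's mouse numbers.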

Additional observations from a re-analysis of the deposited data

Results flagged for a closer look

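In the anti-PD1 5wk group, mouse 5 was farther above the other 4 mice than Dixon's 95% limit allows for 6 of the 8 members. It had 87.8 CPM of Gbp3 (next highest 29.2), 130 of Gbp4 (22.2), 55.9 of Gbp5 (18.2), 59.6 of Gbp6 (15.4), 108 of Gbp7 (32.6) and 57.9 of Gbp9 (35.7). Gbp2, at 115 CPM (next highest 67.7), did not pass this limit, and Gbp8 was at 13.3 CPM, the lowest of the 5. In the untreated 5wk group, mouse 2 was farther below the other 4 mice than the limit for Gbp8, at 8.58 CPM with 23.9 in the next mouse.

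These 7 cases came from 40 sets of 4 to 5 mice examined, of which chance alone would pass about 1 in 20, and 6 of the 7 are 1 mouse. Anti-PD1 mouse 5 had 0.00506% and untreated mouse 2 had 0.0961% of counts in gastric epithelium markers, the lowest of their groups, and their part in these values was not tested.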

How the results depend on the processing

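The results rest on small groups (2 uncured and 3 cured mice), on counts whose split between overlapping genes is uncertain, and on tissue of unequal make-up. The number of members called at 3wk under dual ICI went from 0 to 6 with DESeq2, to 1 without a filter on low counts and to 8 with the gastric epithelium covariate. It went from 8 to 5 in the fit with all 29 libraries for uncured against cured mice, from 0 to 2 with DESeq2 for uncured against dual ICI 3wk mice, and from 3 to 1 with all 29 libraries and to 6 with the covariate for untreated 5wk against 3wk mice. The cause was not tested.

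The replicate numbers were shared between groups, but each of the 5 pairs of groups checked held at least 1 negative correlation between the deviations of same-numbered mice, so the numbers were taken as names. Correlations ran from -0.35 to 0.66 for dual ICI 3wk, -0.73 to 0.46 for anti-PD1, -0.09 to 0.73 for anti-CTLA4 and -0.47 to 0.78 for dual ICI 5wk, each with untreated mice of its week, and from -0.17 to 0.48 between untreated groups. With the replicate block 6 members were called for dual ICI at 3wk, 3 for uncured against dual ICI 3wk and 1 for cured against untreated mice, beside 209, 3192 and 4016 genes, and the log2 fold change turned sign for Gbp3 (-0.010) and Gbp5 (-0.027) with anti-PD1, for Gbp6 (0.052) with anti-CTLA4 and for Gbp8 (-0.0024) between untreated groups. No paired analysis was possible for uncured against cured mice because they share no number.

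Gbp4 with anti-CTLA4, at -0.00 in the main analysis, stood at 0.0092 with DESeq2, 0.0034 with upper-quartile factors, 0.0037 without a filter, 0.013 with all 29 libraries and 0.037 with the covariate, which also gave 0.044 for Gbp6 there and -0.70 for Gbp8 between untreated groups.

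Leaving out 1 mouse at a time, where a group left with 1 mouse was assumed to vary like the other group, gave 0 to 5 members for dual ICI at 3wk, 2 to 4 for cured against untreated, 7 to 8 for uncured against cured, 0 to 1 for uncured against dual ICI 3wk, 1 to 4 for untreated 5wk against 3wk and 0 to 0 for the other 5 comparisons. Log2 fold changes that crossed 0 ran from -0.40 to 0.43 (Gbp3), -0.40 to 0.92 (Gbp4), -0.43 to 0.35 (Gbp5), -0.28 to 0.64 (Gbp6), -0.14 to 0.66 (Gbp7) and -0.049 to 0.29 (Gbp9) with anti-PD1, always without mouse 5. They ran from -0.096 to 0.12 (Gbp4), -0.22 to 0.065 (Gbp6), -0.020 to 0.17 (Gbp7) and -0.099 to 0.17 (Gbp9) with anti-CTLA4, from -0.14 to 0.23 (Gbp3), -0.33 to 0.052 (Gbp5) and -0.27 to 0.012 (Gbp9) for all dual ICI 5wk mice, from -0.040 to 0.28 (Gbp8) between untreated groups, and from -0.24 to 0.077 (Gbp7) and -0.29 to 0.030 (Gbp9) for the interaction.

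Over settings that kept every mouse, genes called ran from 76 to 3538 for dual ICI at 3wk, 4016 to 8693 for cured against untreated, 237 to 3192 for uncured against dual ICI 3wk and 935 to 3150 for untreated 5wk against 3wk. Without 1 mouse they ran from 6 (untreated 3wk mouse 5) to 119, from 4491 to 9388 (untreated 5wk mouse 2), from 0 (uncured mouse 1) to 4006 (dual ICI 3wk mouse 4) and from 654 (untreated 3wk mouse 5) to 4915 (untreated 5wk mouse 2). Without a filter the median of all genes moved to -0.12 for cured against untreated and to 0.12 for uncured against cured mice, with 3 and 8 members called.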

Other observations

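Anti-PD1 mouse 5 also stood apart in the family genes outside the 8 members. It had 26.5 CPM of Gbp10 and 10.7 of Gbp2b, beside 0.516 to 1.45 and 0.0607 to 0.675 in the other 4 anti-PD1 mice, levels that only dual ICI 3wk mice shared or came near to (7.38 to 21.5 and 8.85 to 22.3 CPM). Its Gbp11 was at 1.86 CPM beside 0.485 to 1.09. Its endothelial markers summed to 589 CPM beside 314 to 439 in the other 4 mice, its macrophage markers to 781 beside 675 to 1351 and its monocyte markers to 75.6 beside 290.1 to 349.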
